A study of Mus musculus with 2 samples.

Results

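The transcripts described here are those of 8 mouse genes of cholesterol synthesis and its feedback control, namely Hmgcs1, Idi1, Fdft1, Sqle, Lss, Sc5d, Insig1 and Srebf2. They were read by the 10 gene probes of an Agilent expression array whose accession belongs to one of these genes, of 39426 gene probes and 20017 named genes in all. Fdft1 and Srebf2 had 2 probes each and the others 1. On both arrays all 10 probes were well above background, and none was saturated or marked as an outlier. Of the 8 genes, 6 encode enzymes and 2 encode regulators. None is itself a lipoprotein receptor, so genes of sterol uptake are given from a separate list.

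RNA came from glomerular regions dissected from kidneys of male mice of C57BL/6J strain background, killed at 32 weeks of age. At 8 weeks all mice had been given STZ (streptozotocin, which destroys pancreatic beta cells) in 100 mmol/l citrate buffer, the usual model of insulin-deficient diabetes, so the control group carries the same treatment. Wild-type mice form the WT+STZ group. Mice labelled as transgenic and overexpressing Sirt1 form the TG+STZ group. The study concerns Sirt1, a protein deacetylase, of the renal tubule. The promoter of the transgene, the number of mice behind each array and whether their RNA was pooled are not given in the sources used here. With 1 array in each group there is no replicate to check a difference against, and no p-value is given.

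Cells make cholesterol from acetyl-CoA through mevalonate, farnesyl diphosphate, squalene and lanosterol. The transcription factor SREBP-2, the product of Srebf2, switches on most genes of this route when sterol in the membrane of the endoplasmic reticulum is low. With ample sterol the anchor protein INSIG-1, the product of Insig1, holds the SREBP escort SCAP in that membrane. In the kidney cholesterol is both made locally and taken up with lipoproteins, and lipid accumulation is a known feature of diabetic glomeruli and tubules.

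The promoters of 4 members are shown because SREBP-2 and its partner factors act there, and because these are the 3 members that stood furthest above 0 and the gene of SREBP-2 itself. Each line gives the 250 bases before the annotated start, 5′ to 3′ on the gene's strand, from RefSeq on build GRCm38.p6. RefSeq entries matched 6 of the 8 members. Capitals mark matches, on either strand, to the core of the sterol regulatory element (TCACNCCA), the CCAAT box (CCAAT) bound by NF-Y, the GC box (GGGCGG) bound by Sp1, and the palindromic E-box (CACGTG).
Sc5d, chr9:42264301-42264550, minus strand: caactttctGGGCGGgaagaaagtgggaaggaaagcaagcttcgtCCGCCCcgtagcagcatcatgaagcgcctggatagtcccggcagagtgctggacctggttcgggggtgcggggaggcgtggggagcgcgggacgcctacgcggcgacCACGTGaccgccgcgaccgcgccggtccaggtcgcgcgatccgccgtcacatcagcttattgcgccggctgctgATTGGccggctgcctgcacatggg
Idi1, chr13:8885356-8885605, plus strand: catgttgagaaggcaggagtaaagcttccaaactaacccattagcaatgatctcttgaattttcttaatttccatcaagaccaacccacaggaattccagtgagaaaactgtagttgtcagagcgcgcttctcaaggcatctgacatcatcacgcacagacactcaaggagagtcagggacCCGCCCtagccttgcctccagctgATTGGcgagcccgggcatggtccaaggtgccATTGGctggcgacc
Hmgcs1, chr13:119690101-119690350, plus strand: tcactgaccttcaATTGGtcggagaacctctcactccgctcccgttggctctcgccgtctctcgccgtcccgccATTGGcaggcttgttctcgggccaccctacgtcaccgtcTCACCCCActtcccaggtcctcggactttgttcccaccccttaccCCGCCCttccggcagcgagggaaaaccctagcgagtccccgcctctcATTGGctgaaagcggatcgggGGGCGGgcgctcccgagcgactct
Srebf2, chr15:82147019-82147268, plus strand: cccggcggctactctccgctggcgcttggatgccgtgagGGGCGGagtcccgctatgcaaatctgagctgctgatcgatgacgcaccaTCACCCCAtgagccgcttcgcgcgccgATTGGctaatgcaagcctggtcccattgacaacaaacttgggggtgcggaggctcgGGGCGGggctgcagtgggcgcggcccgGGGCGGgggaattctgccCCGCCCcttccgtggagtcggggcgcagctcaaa

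All 6 promoters, those of Lss and Insig1 included, held a CCAAT box and a GC box. Over the 32851 mouse promoter windows of the same length, 33.8% held a CCAAT box and 32.7% a GC box. Over the 21263 windows of coding genes these shares were 35.4% and 42.6%. The members' windows were 51.2% to 73.6% G and C. The sterol element core was found in Hmgcs1 and Srebf2, against 3.67% of all windows, and the E-box in Sc5d and Insig1, against 6.02%. A longer form of the element, the core with an A before it and a C after it, was in 0 of the 6 and in 0.192% of all windows. None of the 27 matches in the members overlapped another. These matches describe letters only, and no binding was measured.

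The 2 arrays were alike for most genes. The share of gene spots well above background was 75.04% in WT+STZ and 76.26% in TG+STZ. Differences are log2 values for TG+STZ minus those for WT+STZ, after each array's 75th percentile was subtracted. The errors are those of the scanner software and cover a single hybridisation, so they leave out the spread between mice. Over the 15971 genes measured on both arrays the median difference was 0.00, and 95% of genes lay between -0.52 and 0.49. The Sirt1 probe read 2625 units for WT+STZ and 2977 for TG+STZ, a difference of 0.10 ± 0.20, within its error. Whether it reads the transgene was not tested, and the groups are named by their labels. All 10 podocyte, 10 glomerular endothelial and 10 proximal tubule markers were well above background on both arrays. The median signal of proximal tubule markers was 119791 units in WT+STZ, so the RNA also held tubule transcripts, and the cell of origin of the members' signal cannot be told.

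Sc5d was the member that differed most between the arrays, 2.33-fold higher in TG+STZ. Idi1 and Hmgcs1 were higher by less, 1.40-fold and 1.32-fold. Fdft1, the enzyme that commits carbon to sterols, lay on the other side of 0 on both of its probes. The regulators Insig1 and Srebf2 differed by less than the scanner error, Srebf2 narrowly. In all, 4 of the 8 members were above 0 and 4 below, as were 50.9% and 49.1% of all genes. Only Sc5d passed 2-fold, against 0.52% of all genes at least 2-fold higher, and no member was at least 2-fold lower, against 0.47% of all genes. By probe, 1 of the 10 was at least 2-fold higher, against 0.769% of all probes measured. The members' median was 0.08 on the log2 scale, beside 0.00 over all genes, and -0.05 without Sc5d. The plot of signals by probe shows both arrays for each of the 10 probes.

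**Figure D1:**
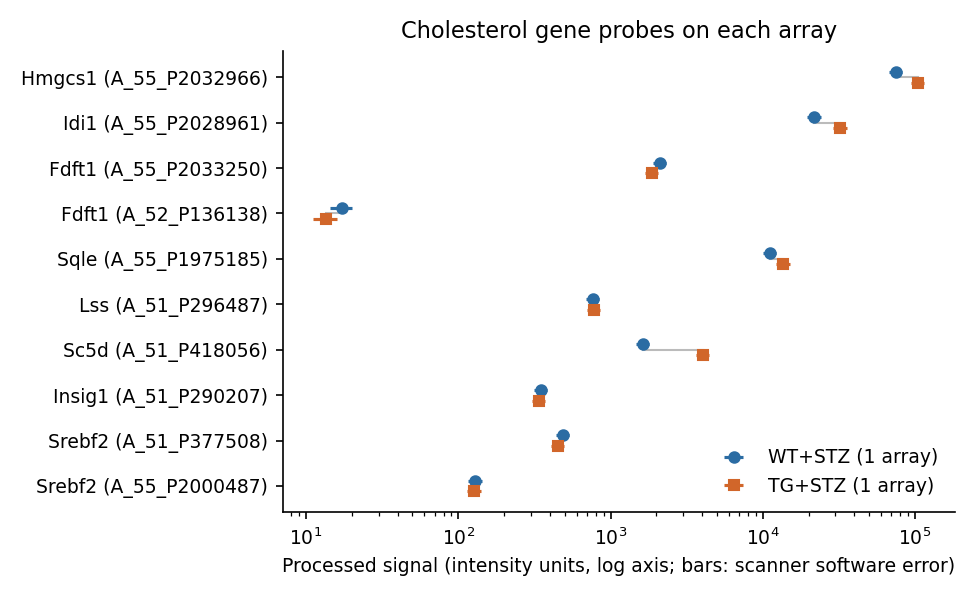
Processed signal in intensity units (log axis) of the 10 probes of the 8 genes on the WT+STZ array (circles) and the TG+STZ array (squares), before scaling, with bars for the scanner software's error. The Sc5d probe moved from 1638 to 4024 units, while the Lss, Insig1 and Srebf2 probes lay almost on top of each other.

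Sc5d encodes lathosterol oxidase, which introduces a double bond into the sterol ring late in the route to cholesterol. Its probe, A_51_P418056, read 1638 ± 164 intensity units for WT+STZ and 4024 ± 402 for TG+STZ. The scaled difference was 1.22 ± 0.20 on the log2 scale, the 55th highest of the 15971 genes. The TG+STZ signal lay far above that of WT+STZ, by 5.97 times the error. The 1000 probes nearest in signal lay between -0.35 and 0.36 in their middle 95%, so Sc5d stood outside that range. The raw pixel medians, 1771 and 4245 units over local backgrounds of 34.0 and 37.0, showed the same gap. The 83 detected gene spots around it on the array had a median difference of 0.01, so that part of the slide was not brighter as a whole. The value rests on 1 spot of 1 probe.

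Hmgcs1 encodes the cytosolic synthase that joins acetyl-CoA to acetoacetyl-CoA ahead of mevalonate. Its probe gave 74633 units for WT+STZ and 104358 for TG+STZ. The scaled difference was 0.41 ± 0.20, above the middle 95% of probes of like signal (-0.30 to 0.31). Idi1 encodes the isomerase that converts isopentenyl diphosphate into its reactive isomer. Its signal was 21806 units for WT+STZ and 32338 for TG+STZ. The scaled difference was 0.49 ± 0.20, also just above the range of probes of like signal (-0.23 to 0.44). Both genes were thus higher by more than the scanner error, and 2.59% of all genes stood higher than Idi1 and 3.63% higher than Hmgcs1. Idi2, a related isomerase gene next to Idi1, read 11.7 and 15.6 units on its 1 probe detected on both arrays. Whether transcripts of related genes reach the Idi1 probe was not tested.

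Fdft1 encodes squalene synthase, which takes farnesyl diphosphate into the sterol branch. Its brighter probe gave 2101 units for WT+STZ and 1868 for TG+STZ, a scaled difference of -0.25 ± 0.20. The dim probe read 17.3 and 13.6 units, close to background, and differed by -0.42 ± 0.35. Both probes were lower in TG+STZ, each by slightly more than its own error and within the range of probes of like signal. Their mean was -0.34 ± 0.20. The tables hold no probe sequences to say which part of the transcript each probe reads.

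Sqle encodes squalene epoxidase, an oxygen-dependent enzyme that controls flux into sterols. Its signal was 11148 units for WT+STZ and 13620 for TG+STZ, with a scaled difference of 0.21 ± 0.20. Lss encodes lanosterol synthase, which closes the sterol rings. It read 763 and 778 units, a scaled difference of -0.05 ± 0.20. Sqle stood above 0 by about its error, and Lss was indistinguishable from 0. The unscaled signals of Lss were slightly higher in TG+STZ, because that array was brighter overall.

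Insig1 gave 347 units for WT+STZ and 339 for TG+STZ, a scaled difference of -0.12 ± 0.21. Of the Srebf2 probes, A_51_P377508 read 484 and 449.6 units and A_55_P2000487 read 129 and 127 units. Their scaled differences were -0.18 ± 0.20 and -0.10 ± 0.21, with a mean of -0.14 ± 0.15. Insig1 is known as a target of SREBP as well as its brake. Its value, from 1 probe, was within its error of 0, and SREBP activity was not tested. In all, 5 of the 8 members differed by more than their scanner error, as did 24.3% of all genes. Of the 8 members, 4 were higher by more than that error (Sc5d, Idi1, Hmgcs1 and Sqle), as were 10.7% of all genes. Fdft1 was lower. Among the 3873 genes beyond their error in either direction, 1713 were higher. Sqle was within its error with the percentile over detected probes, quantile normalization or loess (0.19, 0.18 and 0.17). Srebf2 was lower by more than its error of 0.15 with that percentile (-0.16) and with normexp (-0.22). The histogram of all genes shows where the 8 fall.

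**Figure D2:**
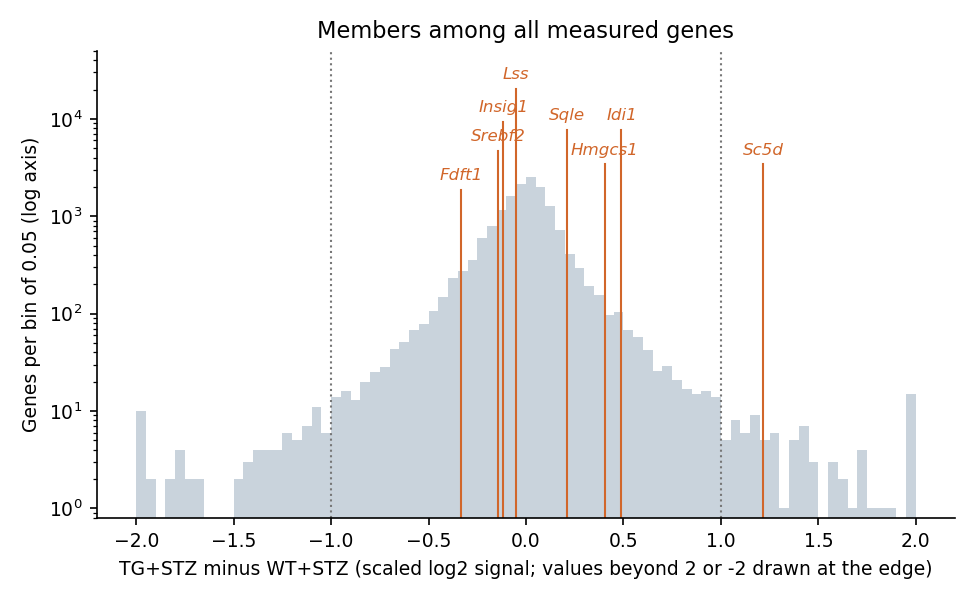
Number of genes (log axis) by TG+STZ minus WT+STZ difference in scaled log2 signal over 15971 genes, with a line at each member and dotted lines at 2-fold (genes beyond 2 log2 units are in the end bins). Sc5d lies beyond the dotted line at 1.22, and the other 7 members lie between -0.34 and 0.49.

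The pathway was also read along its length, with 15 further enzymes that are not members. Of these 15, 10 were above 0 and 5 below, none passed 1.5-fold in either direction, and their median was 0.08. Over all genes 50.9% were above 0, and the share past 1.5-fold was 1.75% higher and 1.91% lower. The furthest of them were Nsdhl and Hsd17b7, a pair of enzymes that work in succession to remove methyl groups from the sterol ring. Nsdhl stood at 0.33 ± 0.15, with its 2 probes at 0.33 and 0.34. Hsd17b7 stood at 0.24 ± 0.14, from probes at 0.23 and 0.26. With the members included, the 9 enzymes up to squalene had a median of 0.08 and the 12 after it 0.13, and 14 of the 21 were above 0. The 9 count Ggps1 (0.01 ± 0.14), which lies on a branch off the route to squalene. Sc5d stood apart from its neighbours in the route, the isomerase Ebp before it at 0.09 ± 0.20 and the reductase Dhcr7 after it at 0.06 ± 0.20. This grouping at squalene was chosen after the values were seen.

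**Figure D3:**
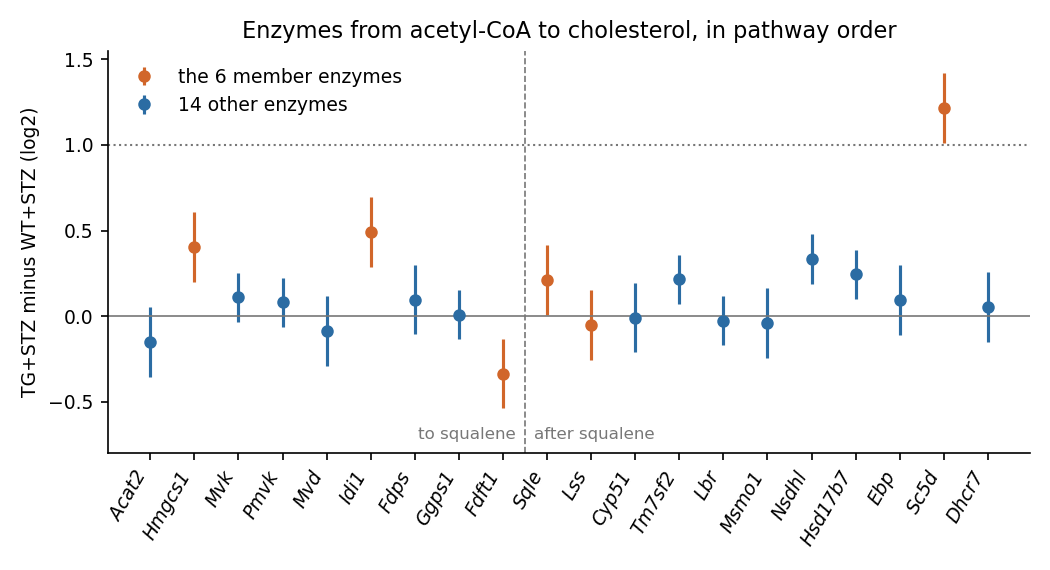
TG+STZ minus WT+STZ difference (scaled log2 signal) of 20 of the 21 enzymes, placed in the order of the route from acetyl-CoA to cholesterol, with bars for the scanner error and a dotted line at 2-fold. The 14 other enzymes plotted lie between -0.15 and 0.33, whereas the 6 members run from -0.34 for Fdft1 to 1.22 for Sc5d. Ggps1 is drawn between Fdps and Fdft1 but lies on a branch off this route.

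Genes that process SREBP or sense sterol lay close to 0, with 9 of 11 above it, beside 50.9% of all genes. Their median was 0.08 and none passed 1.5-fold. Among them Rnf139, a ubiquitin ligase, stood at 0.20 ± 0.20. Of the fatty acid synthesis genes, which are governed mainly by the related factor SREBP-1, 8 of 14 were above 0, with a median of 0.05. Scd1, the stearoyl-CoA desaturase, had signals of 7842 (WT+STZ) and 19700 (TG+STZ) units, a difference of 1.25 ± 0.20. Thrsp, a lipogenic gene, read 461 and 784 units, at 0.69 ± 0.20. These were the only 2 of the 14 past 1.5-fold, and Scd1 was the only one past 2-fold.

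Sterol uptake and intracellular transport genes were spread around 0, with 6 of 10 measured genes above it (4 under normexp) and a median of 0.01. Mylip, a ubiquitin ligase that removes lipoprotein receptors from the cell surface, stood at 0.45 ± 0.15 (probes at 0.38 and 0.51). Soat1, which esterifies cholesterol for storage, had signals of 279 (WT+STZ) and 126 (TG+STZ) units, a difference of -1.23 ± 0.21 from 1 probe. It was the only gene of the 6 lists at least 2-fold lower. Lrp8 was well above background on the TG+STZ array alone. Genes of sterol efflux under the oxysterol receptor LXR had a median of 0.01 over 7 measured genes. The ATP-driven exporters Abcg1 and Abca1 were lowest, at -0.59 ± 0.20 and -0.44 ± 0.20. Abcg1 gave 1156 units for WT+STZ and 810.5 for TG+STZ, and Abca1 gave 1710 and 1334. Abcg8 was not well above background on either array. Of 6 sterol-oxidising enzymes 4 were below 0 (3 under median centring), among them Cyp7b1 at -0.43 ± 0.20 (34420 and 26941 units), and Cyp39a1 stood at 0.39 ± 0.20 (1182 and 1636 units). The plot of gene lists shows that Sc5d, Scd1 and Soat1 are its only points past 2-fold.

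**Figure D4:**
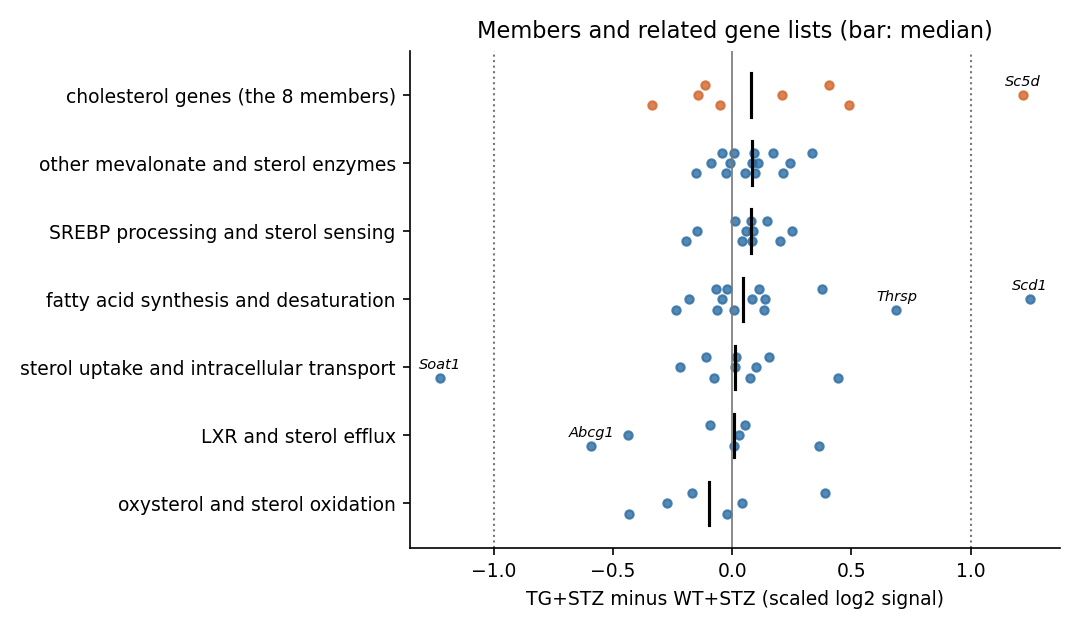
TG+STZ minus WT+STZ difference (scaled log2 signal) of the 8 members and of the measured genes of 6 related lists, 1 point per gene, with a bar at each median and dotted lines at 2-fold. The list medians lie between -0.10 and 0.08, and genes beyond 0.55 in either direction are named.

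Markers of other cells moved beside these values. Of 10 fat cell markers, 6 were detected above background for WT+STZ and 9 for TG+STZ. The 6 measured on both arrays were all higher, with a median of 2.06. The summed signal over all 10 markers was 27677 units for WT+STZ and 35183 for TG+STZ. Most of it came from Fabp4 (11503 and 15379 units) and Pnpla2 (15961 and 17271 units, a difference of 0.035 ± 0.20). This sum and those below are unscaled and take the brightest probe of each gene. Adipoq and Ucp1 were not well above background in WT+STZ, at 7.07 and 3.63 units, and read 156 and 274 units in TG+STZ. Of 8 fibroblast markers 7 were higher, with a median of 0.50 and summed signals of 15934 and 22261 units. The 9 measured leukocyte markers all lay below 0 (median -0.44), with summed signals of 41017 and 39590 units over the 9 with a probe. Of those sums, 38210 and 37178 units came from Itgam. Over all genes 50.9% were above 0 and 49.1% below. Kidney markers lay mainly below 0, most lists by little. These were 6 of 10 podocyte (median -0.06), 9 of 10 glomerular endothelial (-0.11) and 7 of 8 mesangial and smooth muscle markers (-0.14). So did 8 of 10 proximal tubule (median -0.03), 7 of 8 loop of Henle and distal tubule (-0.115), and 6 of 8 collecting duct markers (-0.36). Of these medians only that of collecting duct was larger than the error of the median gene, 0.20. The part of fat cells, fibroblasts and leukocytes in the values of Sc5d, Scd1 and the other lipid genes was not tested. Adrenal cortex is another tissue rich in sterol synthesis. Of its 9 markers, 4 were well above background for WT+STZ and 5 for TG+STZ, and the 9 summed to 1299 and 1312 units. The steroid-making genes Cyp11a1, Cyp11b1, Cyp11b2 and Hsd3b1 were not well above background on either array. Star, Cyp21a1, Nr5a1 and Akr1b7 were so on both, with a median difference of -0.06. In mixed tissue, fewer cells of a type and less RNA per cell cannot be told apart.

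Hmgcs1 lay among genes that also differed between the arrays. In the chromosome order of the RefSeq table, its nearest measured neighbours were Tmem267 and Ccl28 on one flank and Nim1k and Zfp131 on the other. All 4 were higher in TG+STZ. Ccl28, a chemokine of mucosal surfaces, gave 266 units for WT+STZ and 1567 for TG+STZ, a difference of 2.48 ± 0.21. Tmem267 stood at 0.60 ± 0.12 over 3 probes (0.53 to 0.64), Nim1k, a dim gene, at 0.55 ± 0.28 and Zfp131 at 0.44 ± 0.20. The genes next in order, 3110070M22Rik and AF067063, stood at -0.10 ± 0.21 and -0.03 ± 0.20. Further along, Fgf10, a growth factor of epithelial branching, stood at -2.04 ± 0.07, from 157 to 40.3 units.

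The median absolute difference of the 3 measured genes on each side was 0.49 for Hmgcs1, against 0.10 for the median of 15844 genes. Only 0.316% of those genes had a larger value. For the other members it ran from 0.07 at Sqle to 0.24 at Srebf2. This value was 0.22 at Sc5d and 0.235 at Idi1, with 7.13% and 5.7% of genes larger. Next to Sc5d were Sorl1 at -0.16 ± 0.20 and Tbcel at -0.02 ± 0.14. A step further were Mir100hg at -0.73 ± 0.30 and Grik4 at 0.28 ± 0.29, both dim. Of the 6 measured genes around Idi1, 5 were higher in TG+STZ, as was 1 of the 6 around Sc5d. Whether the higher Hmgcs1 signal belongs with its chromosomal neighbours or with Idi1 and Sc5d of its pathway was not tested. The neighbours were examined after the values of the members were known.

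**Figure D5:**
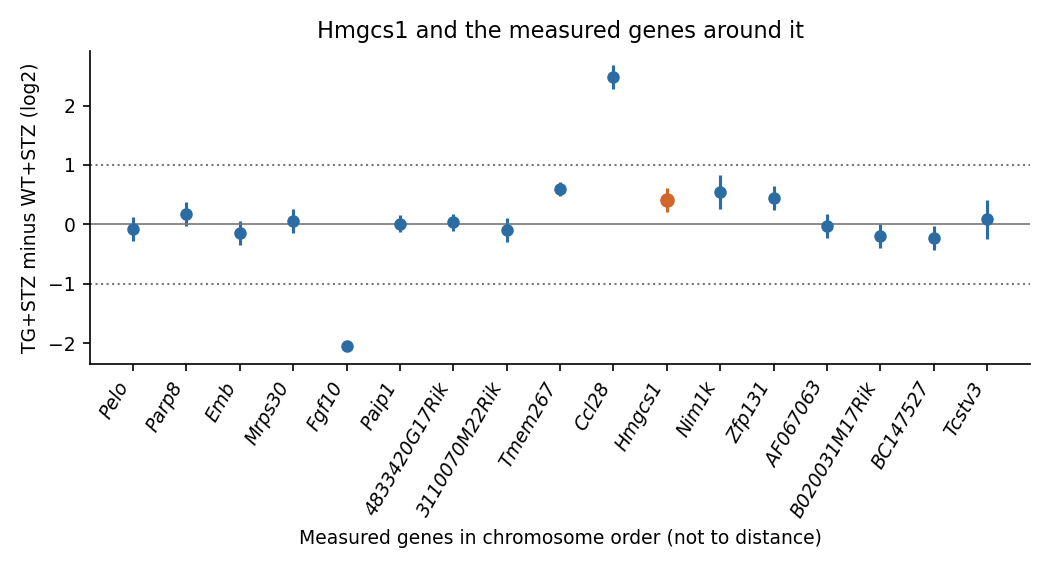
TG+STZ minus WT+STZ difference (scaled log2 signal) of Hmgcs1 and the measured genes around it, in chromosome order and not to distance, with bars for the scanner error and dotted lines at 2-fold. The 5 genes from Tmem267 to Zfp131 all lie above 0, with Ccl28 at 2.48, and the genes on either side of them lie near 0 except Fgf10 at -2.04.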

How the data were processed

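Cy3-labelled total RNA was hybridised to a 1-colour Agilent mouse array, with 1 array per group. The authors extracted a processed intensity and its error for each spot, corrected for background within the array, with Agilent Feature Extraction 10.7.1.1, per the file headers (10.3.1.1 in the submitters' processing notes). The deposited value table held the same intensity at all 44397 spots of each array (no tolerance). Its column medians were 158 and 162, so it is on a linear scale with no centring between arrays.

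Processed intensities were taken to log2, and each array's 75th percentile over its 43020 gene spots was subtracted. Spots marked as outliers were left out (114 and 109). Spots of 1 probe, and then detected probes of 1 gene, were averaged. A probe counted as measured when both arrays had it well above background and unsaturated. Accessions were named through a RefSeq table of GRCm38.p6, which matched 26410 of 39426 probes. The difference carries the software error of both spots, combined. It was 0.20 for the median gene. Over 8 detected probes, the E1A spike-in controls stood between -0.05 and 0.05. Promoter sequences, their coordinates and the order of genes come from RefSeq tables of the same build. The number of arrays limits the precision.

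The members and lists were chosen with earlier results of these data known. The text names every member, and from each of the 6 further lists the 2 genes furthest from 0 whose probes lie on the same side, plus any past 2-fold. Other genes were named after their values were seen, and some items are not reported here. The steps were tested on simulated data. Alternatives were median centring, the percentile over detected probes, quantile normalization, loess with a span of 0.3, spike-in centring, normexp on spot medians with an offset of 50, the value table, outlier spots kept, no filter on dim probes, a laxer detection flag, the brightest or the median probe of a gene, a 1.5-fold threshold and the members without the furthest. The work used limma 3.58.1 in R 4.3.3, and pandas 2.3.3, numpy 2.4.6, matplotlib 3.10.9 and statsmodels 0.14.6 in Python 3.11.15.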

Additional observations from a re-analysis of the deposited data

How the results depend on the processing

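Across the alternatives, 244 of 245 recomputed values of 28 results moved by less than the scanner error, or by at most 1.5 times for a count. At that bound, sterol uptake and transport genes above 0 went from 6 to 4 under normexp, and sterol-oxidising enzymes above 0 from 2 to 3 under median centring. Every member kept its side of 0 under all 12 alternatives for its gene value, but several of these could not change it. The value table held the same intensities, no member spot was an outlier, and all 10 member probes were detected. The value table, kept outliers, laxer filters and median probe thus returned the main value. The brightest probe could change only Fdft1 and Srebf2. Such repeats are counted among the 244. Sc5d ran from 1.16 to 1.24, Idi1 from 0.43 to 0.51, Hmgcs1 from 0.35 to 0.43, Sqle from 0.17 to 0.26 and Fdft1 from -0.36 to -0.25. The value that moved was the members' median, -0.05 without Sc5d against 0.08 with it, since 4 of the 7 left lie below 0. Over all genes, 83 were at least 2-fold higher and 75 lower. Under normexp these were 36 and 29, with 36.9% of genes above 0 in place of 50.9%. They were 295 and 323 with no filter on dim probes and 202 and 217 with the laxer flag. No paired analysis was possible because each group had 1 array. Dim probes, such as the second of Fdft1, limit what can be read.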

Other observations

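Soat1, the sterol-esterifying gene that was more than 2-fold lower, also lay near genes that differed between the arrays. On chromosome 1, genes near it included Fam163a at 2.16 ± 0.20, Tdrd5 at -0.80 ± 0.15, Abl2 at 0.27 ± 0.20, Tor3a at -0.15 ± 0.15 (its 2 probes opposed, at -0.91 and 0.62) and Fam20b at -1.91 ± 0.20. Fam20b gave 2984 units for WT+STZ and 836 for TG+STZ. The 3 measured genes on each side of Scd1 had a median absolute difference of 0.08. The paralogs of Scd1 that lie next to it, Scd2, Scd3 and Scd4, stood at 0.01 ± 0.20, 0.34 ± 0.13 and -0.10 ± 0.21. The 3 probes of Scd3 ran from 0.06 to 0.87. The cause of these local differences was not tested.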
